A study of Ambystoma mexicanum with 8 samples.

Results

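The transcripts described here are the 200 that stood highest in the uninjured axolotl forelimb relative to each regenerating stage. Reads per transcript were turned into counts per 1000000 reads of the library (cpm), and only transcripts with 1000 or more reads at 0 days post amputation (dpa) were considered. The rule value of a transcript was the log2 ratio of its 0 dpa cpm to its highest cpm at 3, 6 or 14 dpa, after 0.5 cpm was added to both, and the 200 largest values were taken. They are 200 of 1865 transcripts with enough reads (10.7%), and 200 of 90099 transcripts in the table. The members were thus selected on measured values. Because the rule used the level at 0 dpa and the highest later level, every fold change against 0 dpa given below for these transcripts is a description of the choice. The rule also used the highest of the 3, 6 and 14 dpa levels, so the order among these stages is only partly free of it. The small RNA libraries are a measurement that the rule did not use. Other transcripts of the same genes were ranked by it too where they had 1000 or more reads at 0 dpa. Such a transcript is outside the set because its value was smaller, so its contrast with a member is partly fixed by the choice.

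Axolotls (Ambystoma mexicanum) from a stock center were anesthetized with MS222, and forelimbs were amputated through the mid-zeugopod, the middle of the forearm. A polyA+ mRNA library and a small RNA library were made at 3, 6 and 14 dpa and from uninjured limbs at 0 dpa, 1 library of each kind per stage. Each library held several pooled tissues, so there is no replicate error, no test was made, and the 95% intervals given are exact (Clopper-Pearson) and cover counting error only. No cells were sorted, and in such mixed tissue fewer cells of a type and less RNA per cell cannot be told apart. The strain is not given in the sources used here, and the study's methods call its animals adult in a phrase that may or may not include the axolotls.

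The mRNA libraries held 15249786, 36931886, 19049794 and 18581310 reads at 0, 3, 6 and 14 dpa. The library in which these transcripts were high was thus the shallowest of the 4. A transcript with 3 reads or fewer was taken as at the floor, which is 0.197, 0.0812, 0.157 and 0.161 cpm at 0, 3, 6 and 14 dpa. Fold changes were scaled by TMM (trimmed mean of M values), and a change past 0.58 on the log2 scale, 1.49-fold, was counted as higher or lower.

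After amputation, the salamander stump is closed by wound epidermis, the tissues next to the cut break down, and progenitor cells gather into a blastema. Differentiated muscle fibers, nerve sheaths and skeletal tissue of the intact limb are not part of an early blastema. The reference for these reads was a de novo assembly, in which 1 gene can be present as several transcripts (splice forms, alleles, copies or fragments). Transcripts that the assembler grouped together are called a component here, and reads from near-identical transcripts may be divided between them by the counting. No transcript sequence was used here, so identity rests on the zebrafish symbols that the study's tables pair with transcript names.

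Symbols were paired with 24 of the 200 transcripts, covering 21 genes, and 1 more had a protein hit in the annotation table. The other 175 are known only by their transcript names. All 24 symbols came by way of a table of transcripts that the study had called lower, so their direction is not independent evidence. In the series as a whole, 3799 transcripts had a symbol, 324 of them with 1000 or more reads at 0 dpa. The study's pairings were available here only in part. A gene can therefore have further transcripts without a symbol, and sums and shares of a gene cover its paired transcripts only.

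Together the 200 transcripts held 1763371, 341683, 42481 and 10550 reads at 0, 3, 6 and 14 dpa. Their share of each library was 11.6%, 0.925%, 0.223% and 0.0568% at 0, 3, 6 and 14 dpa. Among the 100 transcripts with most reads in the uninjured limb, 21 belonged to this set. The reads of single members at 0 dpa ran between 1001 and 180103, with a median of 2464.

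Rule values ran between 2.83 and 10.74, with a median of 3.91, against a median of -0.21 over all 1865 transcripts. The limit fell within a continuous run of values. The last 3 transcripts inside it were comp16187_c0_seq1 at 2.85, comp11809_c0_seq1 at 2.85 and comp40202_c0_seq3 (ctssb.2) at 2.83. The first 3 outside it were comp30512_c0_seq1 at 2.83, comp10669_c0_seq2 at 2.79 and comp36289_c0_seq1 at 2.78. At 0, 3, 6 and 14 dpa, comp40202_c0_seq3 had 2003, 667, 91 and 0 reads, and comp30512_c0_seq1 had 8133, 2757, 326 and 4 reads.

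**Figure D1:**
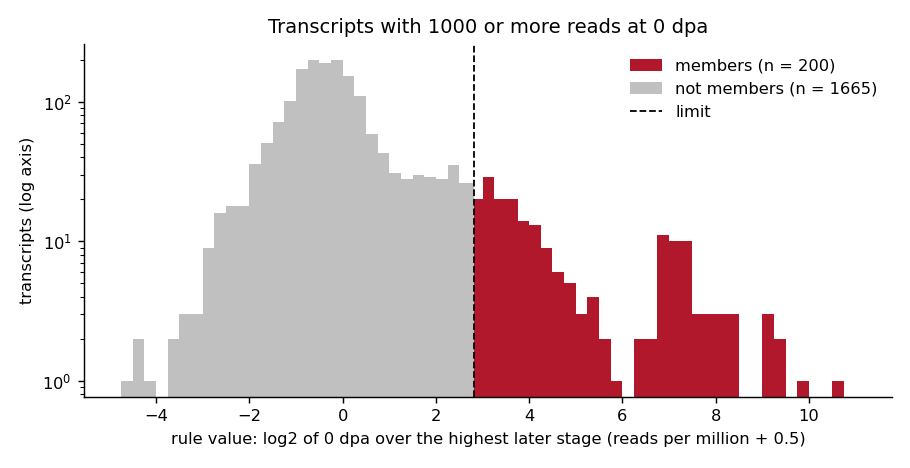
Distribution of the rule value (log2 of the 0 dpa level over the highest later level, after 0.5 cpm was added) over the 1865 transcripts with 1000 or more reads at 0 dpa, with the number of transcripts on a log axis. The 200 members (red) lie to the right of the dashed limit at 2.83, and few of them lie near a rule value of 6.

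At all 3 regenerating stages, each of the 200 transcripts was lower than at 0 dpa past the cut-off, which the rule made certain. Over all transcripts compared, 28.6%, 30.8% and 33.0% were lower at 3, 6 and 14 dpa. At the 3 stages the members had median log2 fold changes of -4.35, -6.48 and -10.75, beside 0.17, 0.06 and 0.05 over all transcripts compared at those stages. At 14 dpa, 99 members were at or under the floor, and with those set to 3 reads the median was -9.50.

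The members followed 2 courses, which were told apart after their values had been seen. In 50 of them, 2.68% of the 1865 transcripts, each regenerating library held 10 reads or fewer, and these are called near-absent here. The other 150 kept more reads in at least 1 regenerating library and are called graded. The limit of 10 reads is arbitrary: the closest graded transcripts were comp37678_c0_seq1 with 11 reads and comp30602_c0_seq1 with 13 reads, both at 6 dpa.

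The 50 near-absent transcripts summed to 120990, 15, 84 and 5 reads at 0, 3, 6 and 14 dpa. At 0 dpa their median was 1440 reads (94.4 cpm), and the highest was 14480 reads. The 3 dpa library had 46 of them listed at 0, the 6 dpa library 27 and the 14 dpa library 49. In terms of the floor, 40 members had 3 reads or fewer in all 3 regenerating libraries, and 26 were listed at 0 in all 3. These 40 are 2.14% of the 1865 transcripts. The rule made certain that no transcript of the 1865 outside the set was at the floor at all 3 stages. The residual reads lay mostly at 6 dpa, where 10 of the 50 had more than 3 reads, against 1 at 3 dpa in a library with more reads. The transcript with the largest rule value, comp38266_c0_seq1, had 14480 reads at 0 dpa and 0 at 3, 6 and 14 dpa, which is at least 13461-fold lower at 3 dpa, 8527-fold lower at 6 dpa and 8067-fold lower at 14 dpa.

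The 150 graded transcripts summed to 1642381, 341668, 42397 and 10545 reads at 0, 3, 6 and 14 dpa. Their median level was 245, 14.0, 6.38 and 0.700 cpm at 0, 3, 6 and 14 dpa. As a share of its own 0 dpa cpm, the median graded transcript kept 7.98%, 2.53% and 0.153% at 3, 6 and 14 dpa. The highest share that any of them kept at 3 dpa was 13.8%.

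**Figure D2:**
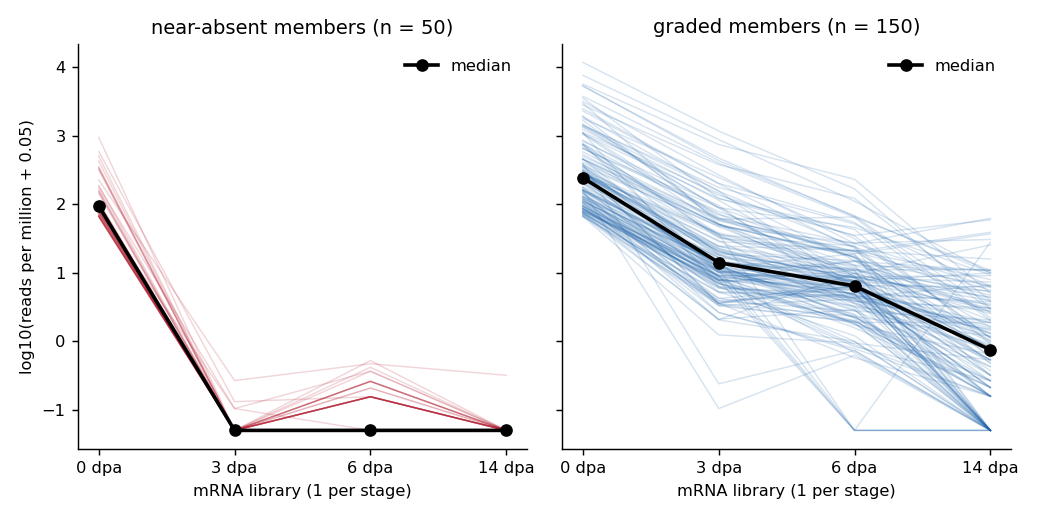
Level of each member in the 4 mRNA libraries, as log10 of cpm after 0.05 was added, with near-absent members on the left (n = 50) and graded members on the right (n = 150). Thin lines are transcripts and black points are medians. The near-absent median lies at 94.4 cpm at 0 dpa and at 0 later, whereas the graded median steps down at every stage to 0.700 cpm at 14 dpa.

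Next, the order among the regenerating stages was examined, which the rule did not fix beyond the highest of the 3. Of the 150 graded transcripts, 118 (78.7%) had their cpm in the order 3 dpa over 6 dpa over 14 dpa, beside 25.7% of all 1865 transcripts. The 50 near-absent members, set apart by their reads at these same stages, are left out of the first share. The second has no such filter and includes the members, so these shares are not like for like. Among the 207 transcripts outside the set whose rule value was still 1 or more, 110 (53.1%) had that order. The highest regenerating level was at 3 dpa in 133 graded transcripts, at 6 dpa in 17 and at 14 dpa in 0.

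From 3 to 6 dpa, 151 members had 10 or more reads over the pair. Of these, 127 were lower at 6 dpa than at 3 dpa and 6 were higher, beside 32.5% lower among all transcripts compared. Their median log2 fold change of 6 dpa over 3 dpa was -1.87, against -0.14 over all transcripts. For 14 dpa over 6 dpa, 126 of 147 members were lower and 7 were higher, beside 27.4% lower among all transcripts. The median of that step was -3.29 for the members and 0.03 over all transcripts.

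How often a transcript of this level was found in a single library was counted for each stage. At or above the cpm of 1000 reads at 0 dpa (65.6 cpm), and with 3 reads or fewer in each of the other 3 libraries, there were 40, 1, 0 and 2 transcripts at 0, 3, 6 and 14 dpa. These are counts out of 1865, 2202, 2321 and 2271 transcripts at that level in the 4 libraries. With a floor of 10 reads the counts were 50, 1, 0 and 2. The 0 dpa library therefore held nearly all such transcripts, and whether this is a feature of the uninjured limb or of that 1 library cannot be told apart.

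Ribosomal protein genes supplied 6 of the named near-absent transcripts. These 6 were the only members among 69 named ribosomal transcripts with 1000 or more reads at 0 dpa. Of all 1865 transcripts, 10.7% were members and 2.68% were near-absent. The ribosome's protein subunits are made in every cell, and gnb2l1 encodes RACK1, a protein bound to the small subunit. The member for rps6, a small-subunit protein, had 1216, 2, 0 and 0 reads at 0, 3, 6 and 14 dpa. A second rps6 transcript, comp15791_c0_seq1, had 21230, 57988, 18522 and 20574 reads. For this gene, then, 1 transcript went to the floor while another had over 1000 reads in every library.

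The other 5 genes had the same form. The member for rpsa, the laminin receptor and small-subunit protein, had 1181 reads at 0 dpa and 0 later, whereas comp41295_c0_seq1 of the same gene had 40959, 79685, 29021 and 32918 reads. The member for rpl7a had 1150, 0, 2 and 0 reads, and the second rpl7a transcript had 30423, 75325, 23849 and 27025. The member for rpl5b had 1135 reads at 0 dpa and 0 later, and the remaining rpl5b transcripts summed to 36598, 87812, 27196 and 30262. Each member was a minor part of its gene, and the large part of the gene was read at all stages. For gnb2l1 the member had 1071 reads at 0 dpa and 0 later, and the others summed to 27657, 58159, 18873 and 20073. For rpl4 the member had 1026, 0, 2 and 0 reads, and the others summed to 20678, 59014, 21493 and 27315.

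As a share of its gene's reads at 0 dpa, the member held 2.80% for rpsa (95% interval 2.65 to 2.96%) and 5.42% for rps6 (95% interval 5.12 to 5.72%), with the other 4 between them. Transcript lengths were not used, so these are shares of reads and not of molecules. Other transcripts of the 6 genes were read at every stage. With all transcripts of a gene summed, the log2 fold change at 3 dpa was -0.11 for rps6 and -0.56 for rpsa, both within the cut-off by TMM. Scaled by library totals, rps6 was at 0.09, and under median-of-ratios scaling rpsa passed the cut-off. At 6 dpa the 6 sums were between -1.43 (gnb2l1) and -0.83 (rpl4), and at 14 dpa between -1.26 (gnb2l1) and -0.41 (rpl4).

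The same was looked for in every ribosomal protein gene with a symbol, 64 genes with 171 transcripts, and with a lower limit of 100 reads at 0 dpa. Of 137 such ribosomal transcripts, 51 had 3 reads or fewer at 3, 6 and 14 dpa. The background is 3.50% of all 13286 transcripts with 100 or more reads at 0 dpa, and 5.82% of the 1615 with a symbol. The 51 symbols again came by way of the table of transcripts called lower, so the share is not independent of direction. They belonged to 47 of the 64 genes. In 46 of the 47 the other transcripts summed to 1000 reads or more in every library, and rps8b was the exception.

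In those 46 genes, the transcripts read only at 0 dpa held between 0.839% (rps4x) and 10.1% (rpl28) of the gene's 0 dpa reads, with a median of 4.36%. Over all 47 genes they summed to 29680, 11, 25 and 0 reads at 0, 3, 6 and 14 dpa. For the other transcripts of the 46 genes, the log2 fold changes at 3, 6 and 14 dpa had medians of 0.08, -0.87 and -0.56.

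Over the whole family, the size of the difference depended on scaling, and its sign only at 3 dpa, where the median was near 0. Over the 64 gene sums the median was 0.04 at 3 dpa, and it turned to -0.04 under median-of-ratios scaling. At 6 dpa it was -0.90 by TMM, with 53 of 64 genes lower, and -0.40 with 22 genes lower when libraries were scaled by their totals. At 14 dpa it was -0.64 with 35 genes lower by TMM, and -0.18 with 8 genes lower by totals. Scaling by totals moved the median of all transcripts by 0.20 at 3 dpa, 0.50 at 6 dpa and 0.45 at 14 dpa, and moved no member across the cut-off.

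**Figure D3:**
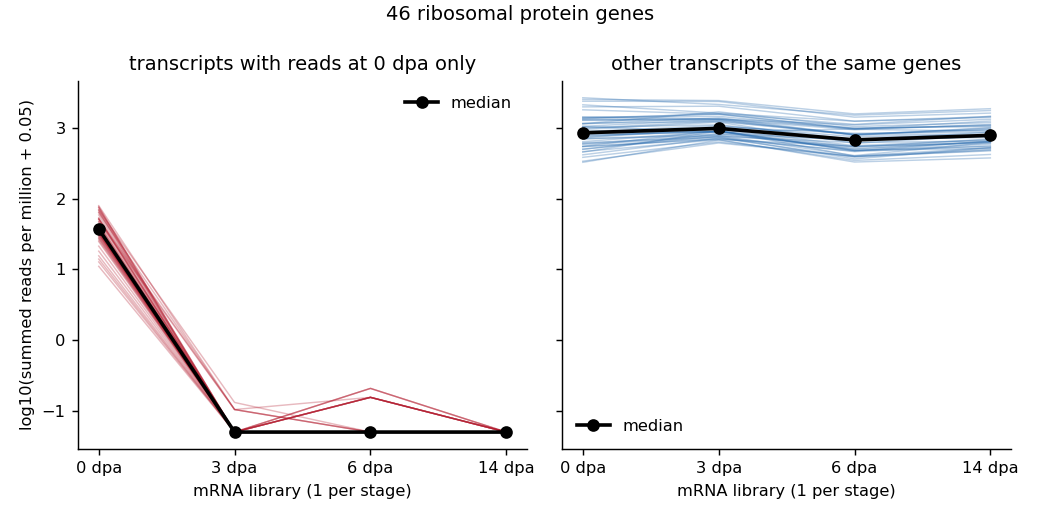
Cpm, as log10 after 0.05 was added, for 46 ribosomal protein genes in the 4 mRNA libraries. On the left are the summed transcripts of each gene that had 100 or more reads at 0 dpa and 3 or fewer later, and on the right the summed other transcripts of the same genes. Thin lines are genes and black points are medians. The left panel drops to the floor at 3 dpa, and the right panel has no such drop.

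Of the other near-absent members with a symbol, those for fth1a and zgc:92061 were of genes with many reads at every stage, too. For krt15, given below, the member held 82.8% of the 0 dpa reads. The member for fth1a, the heavy chain of the iron store ferritin, had 3456, 8, 8 and 5 reads. The remaining 7 fth1a transcripts summed to 75216, 262794, 105115 and 65291 reads. The gene sum was 0.26 at 3 dpa, -0.40 at 6 dpa and -1.01 at 14 dpa on the log2 scale, and the 6 dpa value turned to 0.10 when scaled by totals. The member thus held 4.39% of the reads of a gene that stayed abundant throughout.

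The member for zgc:92061 had 7753, 0, 7 and 0 reads, 2.13% of the 0 dpa reads of the transcripts paired with this symbol. The remaining 6 summed to 356103, 180663, 116868 and 200404 reads, with log2 fold changes of -2.46 at 3 dpa, -2.43 at 6 dpa and -1.57 at 14 dpa. Both the member and the sum of the rest were lower. Of the 6, comp34135_c0_seq1 had 421, 0, 3 and 0 reads.

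The member for eef1a1a, a translation elongation factor that brings aminoacyl-tRNA to the ribosome, had 5983, 7, 13 and 0 reads. It counts as graded by its 13 reads at 6 dpa. Another eef1a1a transcript, in another component, had 433, 1486, 688 and 396 reads. Here the member carried most of the 0 dpa reads paired with the symbol, 93.3%. Further transcripts of this gene may lack a symbol, so the share may not hold for the gene as a whole.

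The member for krt15, a keratin of basal epithelial cells, had 1023 reads at 0 dpa and 0 later. A transcript of the same component, comp40084_c0_seq2, had 120, 0, 2 and 0 reads, and comp43308_c0_seq1 of another component had 93, 148, 60 and 64 reads. The krt15 sum was 1236, 148, 62 and 64 reads. Among the other epidermal markers, ppl (periplakin, a cornified-envelope plakin) had 4721, 6902, 5594 and 5764 reads in sum, and evpla (an envoplakin) had 195 reads in sum at 0 dpa and 0 later. These reads are not scaled to library depth. The epidermis list summed to 2684, 2175, 2455 and 2238 cpm at 0, 3, 6 and 14 dpa. Its 9 transcripts with 1000 or more reads at 0 dpa had median log2 fold changes of -0.89, -0.80 and -0.89 at 3, 6 and 14 dpa. Counted as single transcripts whatever their reads, 45 of 52 on the list were lower past the cut-off at 3 dpa and 0 higher. At 6 dpa and at 14 dpa, 46 of 51 were lower and 0 higher. Over all transcripts compared, 28.6%, 30.8% and 33.0% were lower at the 3 stages. Symbols came in part by way of the table of transcripts called lower, so this direction is not independent evidence. The krt15 member and evpla went to 0 reads, and ppl did not.

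In summed reads over all transcripts of their symbol, 14, 20 and 20 of the 21 genes were lower past the cut-off at 3, 6 and 14 dpa than at 0 dpa. The 7 within the cut-off at 3 dpa were fth1a and the 6 ribosomal protein genes. At 6 dpa the 1 within it was fth1a, and at 14 dpa rpl4. Scaled by totals the counts were 14, 19 and 17. These sums include the members, and 4 of the 21 symbols had no other transcript, so the counts follow in part from the rule. The share of lower sums over all genes was not computed.

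The contractile unit of muscle, the sarcomere, is built of myosin and actin filaments, with troponin and tropomyosin on the thin filament. The only named member on the sarcomere list was tnnt1, slow skeletal troponin T. Its member comp28648_c0_seq2 had 5378, 890, 199 and 0 reads, and the second transcript of the component had 6335, 4933, 309 and 35. At 3 dpa the log2 fold change of the member was -4.07 (95% interval -4.18 to -3.97). That of the second transcript was -1.84 (95% interval -1.89 to -1.79). Both were ranked by the rule, and both had their highest later level at 3 dpa. The larger drop of the member at that stage therefore follows from the choice. At 6 dpa the member was at -5.58 (95% interval -5.79 to -5.37) and the second transcript at -5.18 (95% interval -5.35 to -5.01). The slow troponin T gene as a whole was at -2.49 at 3 dpa, -5.35 at 6 dpa and -9.12 at 14 dpa.

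Members with muscle roles outside that list were picked out after their values had been seen. The transcript comp10669_c0_seq1, whose protein hit is chicken skeletal muscle myosin light chain 3, had 57589, 14850, 1222 and 40 reads. The other transcript of its component, comp10669_c0_seq2, had 40979, 14329, 719 and 16 reads and was the second one outside the limit. The member for myom3, a myomesin of the sarcomere's M band, had 1599, 372, 117 and 24 reads. The member for smpx, a small protein of striated muscle, had 1393, 375, 45 and 0 reads. The member for tmem182, a muscle-enriched membrane protein, had 1088, 252, 42 and 3 reads. In all 4 the cpm dropped at each successive stage.

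On the sarcomere list as a whole, 54 transcripts had a symbol and their summed level was 2067, 709, 403 and 207 cpm at 0, 3, 6 and 14 dpa. Of the 9 with 1000 or more reads at 0 dpa, 8 were lower past the cut-off at each of the 3 stages, and 1 of the 8 was a member. Among transcripts outside the set with 1000 or more reads at 0 dpa, 34.8%, 47.4% and 46.8% were lower. Symbols came in part by way of the table of transcripts called lower, so this direction is not independent evidence. The defining marker neb (nebulin, along the thin filament) summed to 12338, 9733, 1904 and 39 reads over 30 transcripts. The 9th was a tpm4a transcript with 2026, 8132, 4853 and 3520 reads, a tropomyosin that many cell types express. The sarcomere markers acta1b, mylpfa and tnnt3b were not paired with a transcript here.

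Muscle miRNAs were read in the small RNA libraries, which the rule did not use. miR-1a, miR-133a, miR-206 and miR-499 are made mainly in striated muscle. At 0, 3, 6 and 14 dpa, miR-206 made up 11.9%, 1.28%, 0.751% and 0.207% of miRNA reads. miR-133a was 2.75%, 0.185%, 0.0495% and 0.00839% at the 4 stages, and miR-499 was 0.107%, 0.0108%, 0.00348% and 0.000886%. miR-1a was 2.06%, 1.13%, 0.215% and 0.0445%. All 4 went down at each stage, as the graded muscle transcripts did.

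By TMM the log2 fold change of miR-133a was -3.52 (95% interval -3.59 to -3.45) at 3 dpa and -7.56 (95% interval -7.79 to -7.33) at 14 dpa. That of miR-1a was -0.49 (95% interval -0.52 to -0.46) at 3 dpa, within the cut-off, and -0.87 when libraries were scaled by their totals. The remaining 11 of the 12 values (4 miRNAs at 3 stages) were past the cut-off. Of all 143 miRNAs, 27.3% were lower at 3 dpa, 43.4% at 6 dpa and 39.2% at 14 dpa.

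Peripheral nerve supplied 2 members on the nerve and myelin list, both of Schwann cells, which wrap limb axons. The member for mpz, myelin protein zero and the main protein of peripheral myelin, had 20639, 3307, 877 and 172 reads. This was 17.4-fold lower at 3 dpa, 41.6-fold lower at 6 dpa and 201-fold lower at 14 dpa. It was the only transcript paired with mpz.

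The member for prx, periaxin of the myelin-forming Schwann cell, had 1208, 336, 0 and 0 reads. Another transcript of its component, comp40881_c0_seq6, had 695, 777, 466 and 296 reads. The 5 other prx transcripts together were at -1.47 (95% interval -1.60 to -1.33) at 3 dpa and -2.31 (95% interval -2.50 to -2.11) at 14 dpa. The gene was lower at all 3 stages, and only some of its transcripts reached the floor. The other Schwann cell marker, mag (myelin-associated glycoprotein), had 88, 29, 0 and 6 reads in sum.

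The list of nerve and myelin summed to 1561, 140, 80.0 and 28.7 cpm at 0, 3, 6 and 14 dpa over 12 transcripts. At 0 dpa 1353 cpm of this was mpz, and at 14 dpa 9.26 cpm.

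No member was on the lists of energy metabolism, of cartilage, bone and connective tissue, or of membrane, caveolae and lysosome. These lists held only 11, 3 and 6 transcripts with 1000 or more reads at 0 dpa. Of all such transcripts 10.7% were members, so 0 is near that share. Of the cartilage markers, only chad (chondroadherin) was paired with transcripts, and it summed to 652, 66, 7 and 2 reads, under 1000 at 0 dpa. In summed cpm the whole list of cartilage, bone and connective tissue was higher at 3 and 6 dpa, with 3278, 9314, 6608 and 2828 cpm at 0, 3, 6 and 14 dpa. Most of its single transcripts were lower, however. At 3 dpa 8 of its 11 transcripts compared were lower and 3 higher. At 6 dpa 8 of 9 were lower and 1 higher, and at 14 dpa 7 of 9 were lower and 0 higher. Among all transcripts compared, 28.6%, 30.8% and 33.0% were lower at the 3 stages. The only named member on the list of blood, iron and immune genes was fth1a, which is not among the defining markers of blood cells. The erythrocyte marker alas2 (heme synthesis) had 147, 741, 326 and 42 reads. The leukocyte marker lyz (lysozyme) had 35 reads at 0 dpa and 0 later. In all, 10 of the 21 defining markers of muscle, epidermis, Schwann cells, cartilage, erythrocytes and leukocytes were paired with a transcript.

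The remaining named members, singled out after their values had been seen, were on no list. For acta2, smooth muscle actin, the member had 4498, 740, 164 and 72 reads and the second transcript had 651, 329, 89 and 54. The member for fgfbp2b, a binding protein of fibroblast growth factors, had 1539, 312, 42 and 4 reads. The 2 members for ctssb.2, a cathepsin S cysteine protease of the lysosome, had 2486, 782, 188 and 55 reads and 2003, 667, 91 and 0 reads. A ctssb.2 transcript of another component, comp42018_c0_seq1, had 246, 1018, 410 and 93 reads. Its log2 fold changes at 3, 6 and 14 dpa were 0.57, -0.08 and -2.14, within the cut-off at 3 and 6 dpa. The other transcript in the component of the members, comp40202_c0_seq1, was lower at each of these stages, at -1.81, -3.51 and -3.73. Of the 2 other ctssb.2 transcripts, only comp42018_c0_seq1 thus differed in course from the members at 3 and 6 dpa.

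Members for zgc:136930 and wu:fb15e04, symbols without a gene name here, did not keep dropping. The first zgc:136930 member, comp39166_c0_seq5, had 45976, 1917, 184 and 473 reads, and comp39166_c0_seq3 had 29381, 2118, 388 and 724. The other 4 transcripts of that component summed to 13481, 39650, 9796 and 12978 reads, with log2 fold changes of 0.08, -1.28 and -0.80 at 3, 6 and 14 dpa. Of these 4, the 2 paired with zgc:136930 summed to 5298, 2496, 472 and 490 reads. The member for wu:fb15e04 had 54347, 4504, 668 and 1103 reads. These 3 members were higher at 14 dpa than at 6 dpa, by 1.44, 0.98 and 0.80 on the log2 scale. The remaining zgc:136930 member, comp25690_c0_seq2, had 11387, 369, 279 and 199 reads and showed no such return from 6 to 14 dpa. In cpm it was at 9.99, 14.6 and 10.7 at 3, 6 and 14 dpa, so its highest later level was at 6 dpa.

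Such a return was the exception among the graded members. In 11 of 150 the cpm was higher at 14 dpa than at 6 dpa, and in 7 of these the difference was past the cut-off, beside 24.9% of all transcripts compared at that step. The unnamed ones with most reads were comp35021_c0_seq1 with 25579, 2375, 361 and 687 reads and comp30494_c0_seq1 with 11573, 2591, 508 and 1157 reads. Of all graded members, comp30494_c0_seq1 had the highest level at 14 dpa, 62.3 cpm.

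**Figure D4:**
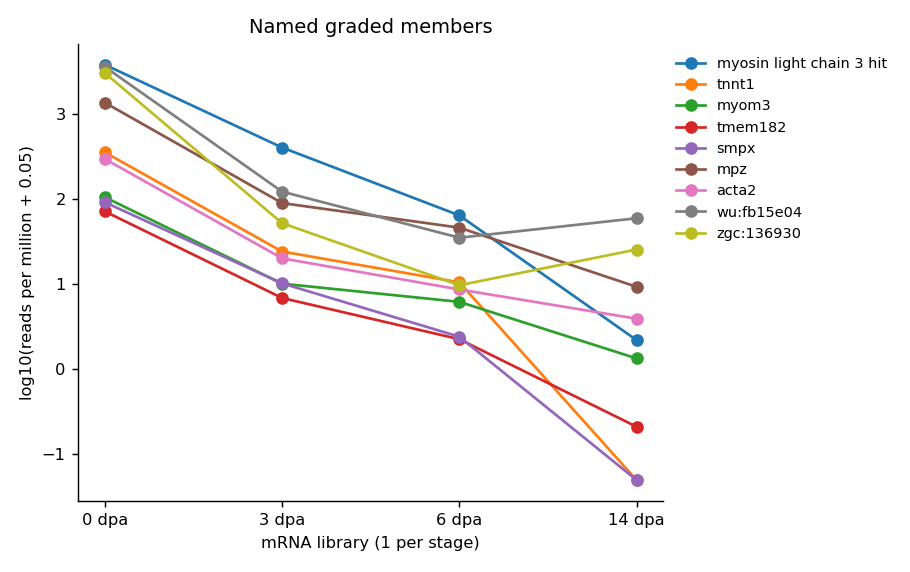
Cpm of 9 named graded members in the 4 mRNA libraries, as log10 after 0.05 was added. The myosin light chain 3, tnnt1, myom3, tmem182, smpx, mpz and acta2 members step down at every stage, and the wu:fb15e04 and zgc:136930 members are higher at 14 dpa than at 6 dpa.

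The most abundant members had no name. The transcript comp28454_c0_seq1 had 180103, 43356, 3208 and 56 reads, and it ranked 6th among all transcripts at 0 dpa. Its log2 fold change was -3.53 (95% interval -3.55 to -3.52) at 3 dpa, -6.63 (95% interval -6.68 to -6.58) at 6 dpa and -12.39 (95% interval -12.80 to -12.02) at 14 dpa. The next, comp41293_c0_seq1, had 116723, 32612, 2112 and 185 reads. Both kept many reads at 3 dpa and were still above the floor at 14 dpa.

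Finally, members were set beside the other transcripts of their components. The 200 members lay in 176 components, 18 of which held several members. In 64 components there were other transcripts, 178 in all. Summed, these others were lower past the cut-off in 51 of 64 components at 3 dpa, 55 at 6 dpa and 56 at 14 dpa, and higher in 3, 2 and 3. Their log2 fold changes had medians of -2.62, -5.33 and -7.78. Among all single transcripts compared, 28.6%, 30.8% and 33.0% were lower at 3, 6 and 14 dpa.

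The other transcripts were then split by the course of their member. In 14 of the 15 components of near-absent members, the other transcripts also had 3 reads or fewer in sum at every regenerating stage. The exception was comp38752_c0, where they had 655, 1355, 136 and 114 reads. For graded members that was so in 2 of 49 components, and in 32 the others had more than 10 reads in each regenerating library. Among all single transcripts with 100 or more reads at 0 dpa, 3.50% had 3 reads or fewer at 3, 6 and 14 dpa. Under the rule, any other transcript at the floor at these stages had under 1000 reads at 0 dpa. Some had few, with 17 in comp39759_c0 and 49 in comp40657_c0.

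In a few components the rest did not drop with the member. In comp40629_c0, 2 members summed to 4771, 745, 198 and 49 reads, and the other 6 transcripts to 4777, 13883, 17844 and 19439. In comp38116_c0, which holds a transcript paired with the actin cross-linker actn1, the member had 20940, 4981, 660 and 20 reads and the others 3814, 16225, 7991 and 6492. In comp15688_c0, the component of tpm4a, the other 2 transcripts did drop in sum, with 56631, 27782, 6056 and 3535 reads beside 21649, 6521, 982 and 118 for the member. Of these 2, the one paired with tpm4a had 2026, 8132, 4853 and 3520 reads. These components were singled out after their values had been seen, and the member carries no symbol of its own in any of them. Summed over whole components, all 176 were lower past the cut-off at 3 dpa, 174 at 6 dpa and 175 at 14 dpa. Every such sum includes a member, and 106 of the 176 components hold only 1 transcript, so these counts follow largely from the rule.

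**Figure D5:**
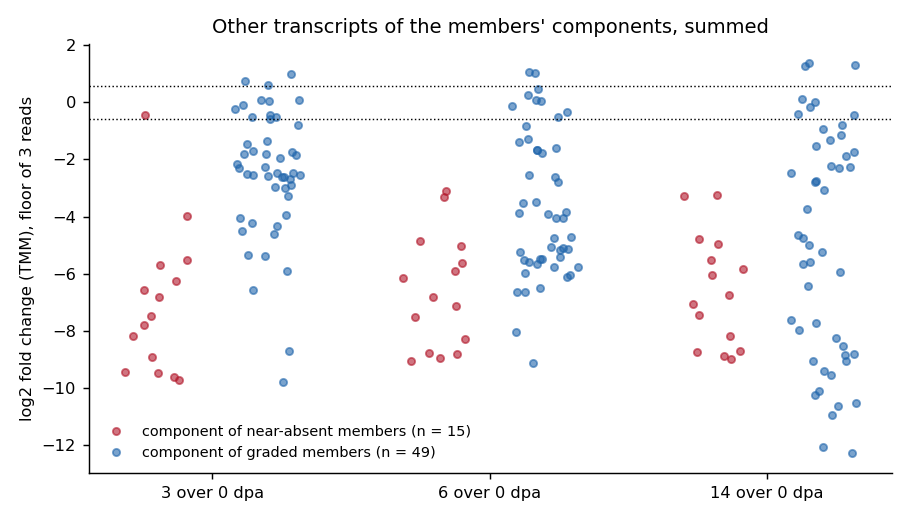
Summed other transcripts of the 64 components that hold both a member and another transcript, as the log2 fold change against 0 dpa with sums under 3 reads set to 3. Red points are components of near-absent members (n = 15), blue points those of graded members (n = 49), and dotted lines mark the cut-off of 0.58. At 14 dpa 56 of the 64 lie below the cut-off and 3 above it.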

How the data were processed

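Both tables deposited by the authors hold log2 of whole read numbers per transcript or miRNA, and 7 spreadsheet error marks in the miRNA table were read as 0 reads. Per the labels and methods, the authors trimmed reads with Trimmomatic, assembled the mRNA de novo with Trinity and took read numbers for each transcript from RSEM. Versions are not given in the sources used here. Of 93299 lines, 3200 repeats were dropped. Reads were recovered as powers of 2. An entry of 0 was read as 0 reads, except in the rule, where it counts as 1.

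TMM (trims of 30% and 5%, 0 dpa as the reference), a prior count of 0.125 and a minimum of 10 reads over the pair were used in Python 3.11.15, tested on simulated data. Named transcripts were the 10 with a symbol and the largest rule value, the 5 with most 0 dpa reads in each list, the 2 unnamed with most reads, and 3 on each side of the limit. The members and lists were chosen with earlier results of these data known. Other scalings, priors, floors and selection settings were tried as alternatives.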

Additional observations from a re-analysis of the deposited data

How the results depend on the processing

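No paired analysis was possible because each stage has 1 library. Of 70 alternative values, 58 kept the direction and stayed close to the reported value. Lowering the minimum at 0 dpa to 500 reads kept 95 of the 200 members, raising it to 2000 kept 115. TMM scaling or a pseudocount of 1 cpm kept 199, a pseudocount of 0.1 cpm kept 200, and 158 of the 176 components were among the first 200 by component sums. The median of the members was -4.01 by components at 3 dpa and -5.98 by totals at 6 dpa. A floor of 1 read left 26 members in place of 40. Without the 6 dpa library, chosen after seeing the data, it was 50. With 1000 reads in each library, 2 transcripts were found at 3 dpa alone. For ribosomal gene sums the median at 3 dpa was 0.24 by totals, and it reversed to -0.040 by median of ratios. At 6 dpa it was -0.40 by totals and -0.76 by upper quartile, and at 14 dpa -0.18 and -0.38. The cause was not tested. The 1 library per stage and the unknown transcript sequences limit all results.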

Other observations

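Some transcripts were read in only 2 of the 4 mRNA libraries. With 30 or more reads in both and 3 or fewer in the others, there were 209 transcripts for 0 and 3 dpa, 123 for 0 and 6 dpa, 16 for 0 and 14 dpa, 281 for 3 and 6 dpa, 139 for 3 and 14 dpa and 107 for 6 and 14 dpa. Of the 123 shared by 0 and 6 dpa, 20 were ribosomal protein transcripts of 17 genes, and none of the other 5 pairs held one. In these 123 the ratio of 6 dpa over 0 dpa reads, not scaled to library depth, had a median of 1.77, with quartiles of 1.48 and 2.14. The 0 and 6 dpa libraries held 15249786 and 19049794 reads, with TMM factors of 0.818 and 1.16. The ratio therefore does not by itself show a higher level at 6 dpa. The quartiles were wider apart for 0 and 3 dpa, at 0.533 and 2.55. For example, rpl4 transcript comp15934_c0_seq1 had 148, 0, 230 and 0 reads at 0, 3, 6 and 14 dpa. The pattern was noticed in the data, and its cause was not tested.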
